A study of Mus musculus with 12 samples.

Results

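Cyclin-dependent kinase (CDK) inhibitors and their retinoblastoma partners were followed through 4 kinds of cultured mouse cell. The set holds 8 genes: the INK4 inhibitors Cdkn2a, Cdkn2b, Cdkn2c and Cdkn2d, the CIP/KIP inhibitors Cdkn1a and Cdkn1b, and the pocket protein genes Rb1 and Rbl1. Each was found by its symbol among the 24537 genes of the deposited RNA sequencing table, and all 8 were among the 12364 genes kept for testing because they reached 1 FPKM in at least 3 of the 12 libraries. FPKM normalise for transcript length and library depth, so levels of different genes are given per length. The set was chosen by a measured value: Cdkn2a FPKM was high in 1 of the groups, the epithelial cells converted in vitro. Levels of Cdkn2a, and contrasts of any of the 8 genes with that group, are therefore described without a test.

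The INK4 proteins bind CDK4 and CDK6 and keep them from D-type cyclins, whereas the CIP/KIP proteins act on several cyclin and kinase complexes. Active CDK4 and CDK6 phosphorylate the retinoblastoma family, which in its unphosphorylated form holds E2F transcription factors and their S phase targets in check. Cdkn2a is unusual in making a pair of unrelated proteins from different first exons: p16Ink4a, a CDK4 and CDK6 inhibitor, and p19Arf, which binds Mdm2 and thereby stabilises p53. Both are known to accumulate in primary rodent cells kept in culture, and Cdkn2a is a well-known brake on the reprogramming of fibroblasts.

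There were 4 groups of 3 libraries, numbered by mouse from 1 to 3. The adipose-derived stromal cells (ADSCs) were Pdgfra-positive cells of subcutaneous fat, cultured in DMEM with 10% serum. The induced stratified epithelial progenitors (iSEPs) were epithelial cells made from such ADSCs, either in culture (in vitro iSEPs) or within the animal, where the converted tissue was then taken into primary culture (in vivo iSEPs). The keratinocytes were primary cultures of back skin. Both iSEP groups and the keratinocytes were kept in serum-free keratinocyte medium, so medium and cell type cannot be told apart in any comparison with ADSCs. All 4 groups carried the strain label Pdgfra-creERxLSL-tdTomato, that is an inducible Cre under Pdgfra control with a Cre-dependent red reporter, and the series' design text gives 3 animals as the source of the samples. The factors used for conversion, the passage of the cultures and the age of the animals are not given in the sources used here. Where "rose" or "fell" is used below, the adjusted p was under 0.05 in limma with Benjamini-Hochberg adjustment over all genes kept.

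The libraries held 21010000 to 27770000 reads in listed genes. The ADSCs had a summed FPKM of 7946 to 9206 over 8 stromal markers, against 26.1 to 288 elsewhere, and of 11.7 to 12.9 over 8 basal keratinocyte markers, against 10550 to 23810 elsewhere. Of 4 adipocyte markers, Adipoq and Plin1 were listed at 0 in every group, and Lep was at most 0.607 FPKM in any library. The remaining marker, Fabp4, had a mean of 20.9 FPKM in ADSCs and 15.3 in the in vitro iSEPs. Its mean was 2.96 FPKM in the in vivo iSEPs and 3.21 in keratinocytes. The in vivo iSEP libraries were the least alike: that of mouse 3 had a mean correlation of 0.923 with its own group, the lowest of the 12 (highest 0.989), and held 103 FPKM of the simple-epithelium keratin Krt8 against a mean of 0.163 in mice 1 and 2. Results that rest on that library, or on the in vivo iSEPs of mouse 1, are given below with and without it. These are bulk samples, in which fewer cells of a type and less RNA per cell cannot be told apart.

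The deposited Cdkn2a row is a single RefSeq transcript of 845 bases on the minus strand of chromosome 4 (mm10, chr4:89274473-89282192). It starts at the inner start of the gene, that of p16Ink4a. In the GENCODE M21 annotation of the same build, the p16Ink4a transcript has 3 exons and 852 bases, of which 575 (67.5%) are also part of the p19Arf transcript, whose own first exon starts 12461 bases further upstream. Reads of both products therefore fall in this row, and the Cdkn2a values below cannot separate p16Ink4a from p19Arf. The neighbouring Cdkn2b lies further upstream on the same strand, at chr4:89306289-89311032.

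The 250 bases before each Cdkn2a start are shown because the gene's products come from separate promoters. They are from RefSeq (GRCm38.p6, the build named mm10 by the authors) and are written 5′ to 3′ on the gene's own minus strand, at chr4:89294620-89294869 for the outer (p19Arf) start and chr4:89282193-89282442 for the inner (p16Ink4a) start. Capitals mark any of 4 E2F words searched on both strands (TTTCGCGC, TTTGGCGC, TTTCCCGC and TTTGCCGC).
Cdkn2a outer start: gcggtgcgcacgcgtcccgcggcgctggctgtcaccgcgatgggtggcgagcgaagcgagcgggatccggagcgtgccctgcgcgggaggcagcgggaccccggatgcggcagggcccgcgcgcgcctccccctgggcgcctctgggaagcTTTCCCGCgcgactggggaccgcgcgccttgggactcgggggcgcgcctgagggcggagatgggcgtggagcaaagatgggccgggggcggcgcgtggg
Cdkn2a inner start: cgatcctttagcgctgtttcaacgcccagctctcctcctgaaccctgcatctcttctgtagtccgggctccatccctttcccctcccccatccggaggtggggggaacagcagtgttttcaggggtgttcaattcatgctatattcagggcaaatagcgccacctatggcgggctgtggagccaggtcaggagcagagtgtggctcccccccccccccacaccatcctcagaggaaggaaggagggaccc
The outer window held 1 such word, TTTCCCGC, beginning 99 bases before the start. It held 40 CpG dinucleotides, 1.08 times the number its base composition predicts, and 78.4% of its bases were G or C. The inner window held no E2F word, 7 CpG dinucleotides (0.32 times the predicted number) and 60% G or C. Of 32851 promoter windows of that length in the RefSeq table, 1.86% held at least 1 of the words. A match is a description of the letters only, and no binding was measured here.

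In windows of 7 of the 8 genes, the other E2F word was in that of Rbl1, and the only p53 response element (no spacer, at most 1 mismatch to the consensus) was in the upstream window of Cdkn1a. No window was available for Rb1, so its promoter was not searched. The Rbl1 window is chr2:157204535-157204784 on the minus strand, with the E2F word in capitals 18 bases before the start. The Cdkn1a window is chr17:29090729-29090978 on the plus strand, upstream of the outer start of the gene, with the p53 element in capitals 51 bases before that start.
Rbl1: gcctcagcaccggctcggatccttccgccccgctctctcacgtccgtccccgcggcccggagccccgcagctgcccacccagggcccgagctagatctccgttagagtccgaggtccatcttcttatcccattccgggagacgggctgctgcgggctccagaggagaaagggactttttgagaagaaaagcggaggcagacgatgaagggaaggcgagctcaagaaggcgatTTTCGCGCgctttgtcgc
Cdkn1a outer start: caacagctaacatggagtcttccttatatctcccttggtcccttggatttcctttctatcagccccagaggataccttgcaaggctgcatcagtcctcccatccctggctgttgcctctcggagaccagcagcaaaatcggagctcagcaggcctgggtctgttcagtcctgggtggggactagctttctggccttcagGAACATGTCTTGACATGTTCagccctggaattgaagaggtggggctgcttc
The p53 element had 1 mismatch, and such elements were found in 0.0761% of all windows. Rbl1 and Cdkn1a are shown because the E2F targets and the p53 targets described further on are the classes these words belong to.

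Cdkn2a was at 79.2, 73.5 and 51.8 FPKM in the ADSCs of mice 1, 2 and 3, at 66.5, 146 and 97.3 in the in vitro iSEPs, at 53.8, 49.1 and 167 in the in vivo iSEPs, and at 23.5, 18.9 and 15.4 in the keratinocytes. All 9 ADSC and iSEP libraries lay above all 3 keratinocyte libraries, while ADSCs and both kinds of iSEP overlapped. The means were 68.1 ± 14.5 FPKM in ADSCs, 103 ± 39.8 in the in vitro iSEPs, 90.0 ± 66.8 in the in vivo iSEPs and 19.3 ± 4.05 in keratinocytes (SD, n = 3 in each group). The ratio of means was 1.51 for in vitro iSEPs over ADSCs, 5.35 for in vitro iSEPs over keratinocytes, 4.67 for in vivo iSEPs over keratinocytes and 3.54 for ADSCs over keratinocytes. So the high level of Cdkn2a in the in vitro iSEPs stood out against keratinocytes and not against the stromal cells of origin. The highest single library was the in vivo iSEPs of mouse 3, and without it the in vivo mean was 51.5 FPKM, below that of ADSCs. Within each group the level ranked higher than that of 92.9% of the genes kept in ADSCs, 95.5% in the in vitro iSEPs, 94.4% in the in vivo iSEPs and 70.0% in keratinocytes. Each value rested on an estimated 392 to 4499 reads.

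**Figure D1:**
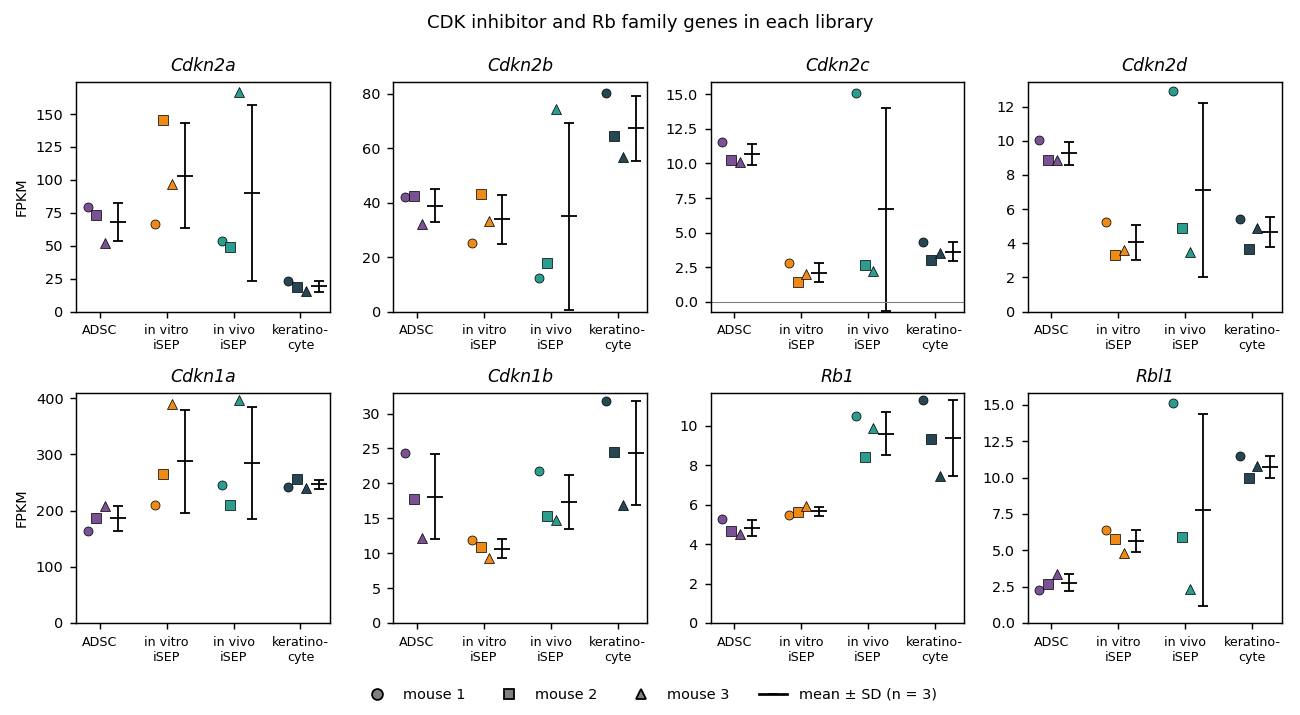
FPKM of the 8 genes (1 panel each, linear axes) in the 3 libraries of each group; symbols are the mice and the bar is the mean ± SD (n = 3), which can reach below 0 where 1 library stands apart. Cdkn2a lies between 15.4 and 23.5 in keratinocytes and between 49.1 and 167 in the other 9 libraries; the in vivo iSEPs spread most for Cdkn2b, Cdkn2c, Cdkn2d and Rbl1.

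Cdkn2b encodes p15Ink4b, an inhibitor known for its induction by TGF-beta. It was highest in keratinocytes, at a mean of 67.3 ± 12 FPKM against 38.9 ± 5.92 in ADSCs (SD, n = 3). Its level was 42.1, 42.6 and 32.1 FPKM in ADSCs, 25.1, 43.3 and 33.1 in the in vitro iSEPs, 12.3, 18.0 and 74.6 in the in vivo iSEPs, and 80.4, 64.6 and 56.9 in keratinocytes. The keratinocytes lay above all ADSC and in vitro iSEP libraries and above the in vivo libraries of mice 1 and 2, but not above that of mouse 3. Keratinocytes against ADSCs gave a log2 difference of 0.77 ± 0.502 (SE), a change that did not pass (adjusted p = 0.219, limma with Benjamini-Hochberg adjustment). A fit of those groups alone, which leaves out both kinds of iSEP, gave an adjusted p of 0.00413. The reason for that change was not tested. Without the in vivo iSEPs of mouse 3, Cdkn2b was lower in the in vivo iSEPs than in keratinocytes (log2 difference -2.09, adjusted p = 0.000489 in limma) and than in ADSCs (-1.32, adjusted p = 0.00115). With it the difference from keratinocytes was -1.34 ± 0.502 (adjusted p = 0.137) and that from ADSCs -0.57 ± 0.502 (adjusted p = 0.378).

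Set against each other within a library, the neighbours separated the keratinocytes from every ADSC and iSEP culture. Cdkn2a over Cdkn2b was 1.88, 1.72 and 1.61 in the ADSCs of mice 1 to 3, 2.65, 3.36 and 2.94 in the in vitro iSEPs, and 4.38, 2.73 and 2.24 in the in vivo iSEPs, against 0.292, 0.292 and 0.271 in keratinocytes. The ratio was thus above 1 in 9 of 9 ADSC and iSEP libraries and below 1 in 3 of 3 keratinocyte libraries. It was higher in every iSEP library than in every ADSC library. It uses the values that chose the set and has no test. Across the 12 libraries of the 4 groups, Pearson's r between the log2 levels of the neighbours was -0.17, and -0.67 over the 9 libraries without the in vivo iSEPs. The next gene on the chromosome, Mtap, a methionine salvage enzyme often deleted along with CDKN2A in human tumours, was at 35.4 ± 5.56 FPKM in ADSCs, 25.4 ± 6.83 in the in vitro iSEPs, 25.6 ± 5.95 in the in vivo iSEPs and 32.2 FPKM on average in keratinocytes, with no call in any of the 6 comparisons.

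Cdkn2c (p18Ink4c) and Cdkn2d (p19Ink4d), INK4 genes that lie outside the Cdkn2a and Cdkn2b cluster, had the highest mean in ADSCs and the lowest in the in vitro iSEPs. Cdkn2c was at 11.6, 10.3 and 10.1 FPKM in ADSCs, 2.79, 1.43 and 2.01 in the in vitro iSEPs, 15.1, 2.67 and 2.22 in the in vivo iSEPs, and 4.34, 3.01 and 3.53 in keratinocytes. Cdkn2d was at 10.0, 8.87 and 8.88 FPKM in ADSCs, 5.23, 3.30 and 3.63 in the in vitro iSEPs, 12.9, 4.91 and 3.49 in the in vivo iSEPs, and 5.40, 3.69 and 4.88 in keratinocytes. For both genes the ADSCs lay above all in vitro iSEP and keratinocyte libraries, and the in vivo iSEPs of mouse 1 lay above the ADSCs while those of mice 2 and 3 lay below them.

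In keratinocytes against ADSCs, Cdkn2c fell by 1.34 ± 0.482 on the log2(FPKM + 1) scale (SE, adjusted p = 0.0358 in limma) and Cdkn2d fell by 0.87 ± 0.339 (adjusted p = 0.0496). Both calls were fragile: Cdkn2c kept its call in 7 of 16 alternative analyses (highest adjusted p 0.189) and Cdkn2d in 6 of 16 (highest 0.275), and for each the call was lost on leaving out any 1 ADSC library. With the mouse as a block the adjusted p values were 0.0183 and 0.022. In the in vivo iSEPs against ADSCs neither passed (adjusted p = 0.106 and 0.238). Without the in vivo iSEPs of mouse 1 both fell, with log2 differences of -1.76 for Cdkn2c (adjusted p = 5.09e-05) and -0.99 for Cdkn2d (adjusted p = 0.00265). The fewest reads behind any value in the set, 47, were those of Cdkn2c in the in vitro iSEPs.

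These genes varied together from library to library. Over the 12 libraries r between Cdkn2c and Cdkn2d was 0.98, the highest r of either gene with any of 9525 genes compared. It was 0.97 without the in vivo iSEPs of mouse 1 and 0.97 over the 9 libraries that were not in vivo iSEPs. Both genes peaked in the in vivo iSEPs of mouse 1, above every ADSC library. The stromal marker sum in that library was 29.1 FPKM, the lowest of the in vivo libraries. The summed neural and glial markers were highest in that library as well, at 118 FPKM against 6.60 to 91.1 in the other 11. The part of either marker sum in the result was not tested.

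Cdkn1a encodes p21, the best-known p53 target and the most abundant inhibitor of the set in every library. It was at 164, 186 and 209 FPKM in ADSCs, 210, 264 and 389 in the in vitro iSEPs, 245, 210 and 397 in the in vivo iSEPs, and 242, 256 and 241 in keratinocytes. Every library of the 3 epithelial groups was above every ADSC library, and the epithelial groups overlapped. The means were 186 ± 22.3, 288 ± 91.8, 284 ± 99.6 and 246 ± 8.36 FPKM in the same order (SD, n = 3). The tested differences did not pass: the log2 difference was 0.41 ± 0.254 for keratinocytes over ADSCs (adjusted p = 0.2 in limma) and 0.56 ± 0.254 for in vivo iSEPs over ADSCs (adjusted p = 0.0931). With the mouse as a block, in vivo iSEPs over ADSCs reached an adjusted p of 0.0456. Keratinocytes over ADSCs reached 0.0179 when those groups were fitted alone.

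Cdkn1b encodes p27, which is regulated largely through the stability of the protein. It was at 24.4, 17.8 and 12.2 FPKM in ADSCs, 11.9, 10.8 and 9.29 in the in vitro iSEPs, 21.7, 15.4 and 14.8 in the in vivo iSEPs, and 31.8, 24.5 and 16.9 in keratinocytes. The in vitro iSEPs lay below all libraries of the other 3 groups. In each group mouse 1 was highest and mouse 3 lowest. Neither keratinocytes (log2 difference 0.42 ± 0.266, adjusted p = 0.21) nor in vivo iSEPs (-0.03 ± 0.266, adjusted p = 0.932) differed from ADSCs beyond the spread in limma. With the mouse as a block, keratinocytes rose over ADSCs at an adjusted p of 0.0328.

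Summed over the 6 inhibitors, the FPKM came to 331, 339 and 324 in the ADSCs of mice 1 to 3, 322, 469 and 534 in the in vitro iSEPs, 361, 300 and 660 in the in vivo iSEPs, and 388, 371 and 339 in keratinocytes. The total therefore overlapped between all groups. Cdkn1a took 49.5% to 72.8% of the sum in every library, and its share overlapped between all groups as well. The keratinocytes stood apart in the shares of Cdkn2a and Cdkn2b. Cdkn2a took 4.55% to 6.06% in keratinocytes. It took 16.0% to 23.9% in ADSCs, 18.2% to 31.0% in the in vitro iSEPs and 14.9% to 25.3% in the in vivo iSEPs, which overlapped. Cdkn2b took 16.8% to 20.7% in keratinocytes and 9.91% to 12.7% in ADSCs. It took 6.19% to 9.25% in the in vitro iSEPs, all below the ADSCs. In the in vivo iSEPs it took 3.40% to 11.3%, overlapping both. In the in vitro iSEPs Cdkn2c took 0.30% to 0.87% and Cdkn2d 0.68% to 1.63%.

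**Figure D2:**
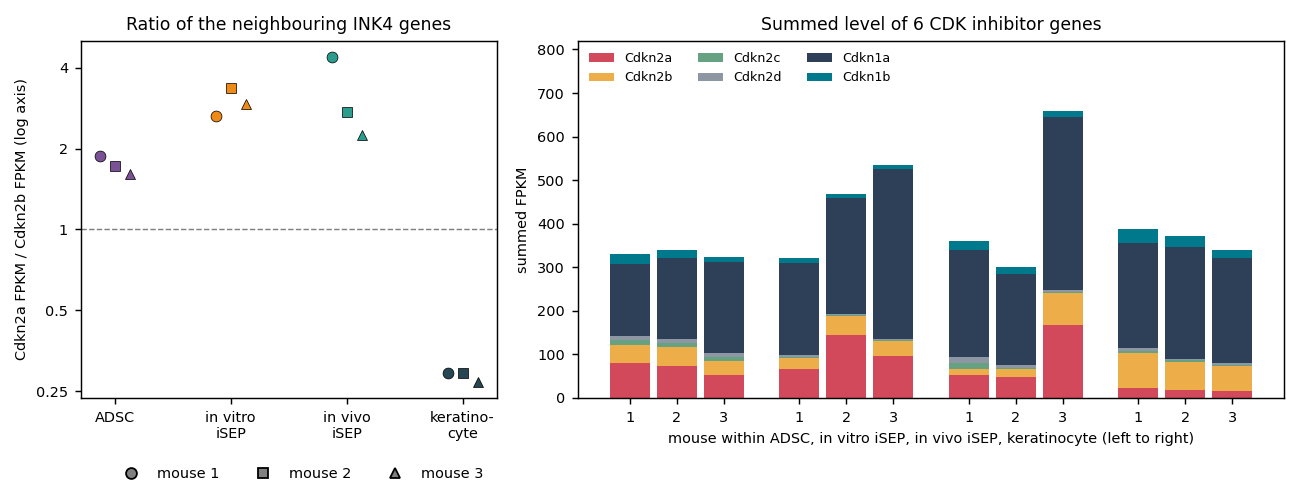
Left, Cdkn2a FPKM over Cdkn2b FPKM in each library (log axis, symbols are the mice, dashed line at 1), which is below 1 in the keratinocytes alone; right, summed FPKM of the 6 CDK inhibitor genes in each of the 12 libraries, stacked by gene from 0. Cdkn1a is the largest share in every bar, Cdkn2a takes 4.55% to 6.06% of the keratinocyte bars and at least 14.9% of all others, and the in vivo iSEPs of mouse 3 reach 660, the highest total.

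The pocket proteins were lowest in ADSCs. Rb1, the retinoblastoma gene itself, was at 5.27, 4.64 and 4.53 FPKM in ADSCs, 5.46, 5.63 and 5.91 in the in vitro iSEPs, 10.5, 8.40 and 9.89 in the in vivo iSEPs, and 11.3, 9.36 and 7.44 in keratinocytes. The in vitro iSEPs lay just above the ADSCs and below every in vivo iSEP and keratinocyte library. Rb1 rose in keratinocytes over ADSCs by 0.82 ± 0.148 on the log2 scale (adjusted p = 0.000736 in limma) and in the in vivo iSEPs over ADSCs by 0.86 ± 0.148 (adjusted p = 0.000577), higher in 3 of 3 mice each time. Both calls held in 16 of 16 alternatives (highest adjusted p 0.0389 and 0.0238). Between in vivo iSEPs and keratinocytes the difference was 0.04, with a 95% interval from -0.28 to 0.37. Rb1 spans genes on the opposite strand, Rcbtb2 and Lpar6, and the sources used here do not say whether the kit marks strand, so reads of those genes cannot be told apart from its own.

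Rbl1, which encodes p107 and is itself a known E2F target, was at 2.27, 2.68 and 3.40 FPKM in ADSCs, 6.36, 5.76 and 4.81 in the in vitro iSEPs, 15.1, 5.90 and 2.32 in the in vivo iSEPs, and 11.5, 9.97 and 10.8 in keratinocytes. In vitro iSEPs and keratinocytes each lay above all ADSCs without overlap, while the in vivo iSEPs ran from the level of ADSCs in mouse 3 to above the keratinocytes in mouse 1. Rbl1 rose in keratinocytes over ADSCs by 1.65 ± 0.422 on the log2 scale (adjusted p = 0.00684 in limma), a call lost only without mouse 2 (0.0922). In the in vivo iSEPs over ADSCs the difference was 0.94 ± 0.422 (adjusted p = 0.0905), and without the in vivo iSEPs of mouse 3 it was 1.49 (adjusted p = 0.00165). Against keratinocytes, in vivo iSEPs differed by -0.71 ± 0.422 (adjusted p = 0.367), and by -1.29 without the in vivo iSEPs of mouse 1 (adjusted p = 0.0123).

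Counted together, 4 of the 7 tested genes were called in keratinocytes against ADSCs, Rb1 and Rbl1 higher and Cdkn2c and Cdkn2d lower, beside 53.5% of all genes kept (32.8% higher and 20.7% lower). In the in vivo iSEPs against ADSCs 1 of 7 was called, Rb1, beside 47.6% of all genes (27.6% higher). In the in vivo iSEPs against keratinocytes limma called 0 of 7, beside 7.48% of all genes; 1 of 7, Cdkn2b, had an unadjusted p under 0.05 (0.0219). The share in keratinocytes against ADSCs was near that of all genes. The median log2 difference of all genes kept was itself 0.18 for keratinocytes, 0.15 for in vitro iSEPs and 0.14 for in vivo iSEPs over ADSCs, and Rb1 stayed called after each library was scaled to a common median.

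Libraries of the keratinocytes did not overlap those of ADSCs for 7 of 8 genes, all but Cdkn1b, beside 69.5% of all genes kept. In vivo iSEPs did not overlap ADSCs for 2 of 8, Cdkn1a and Rb1, beside 54.2%, and did not overlap keratinocytes for 1 of 8, Cdkn2a, beside 27.8%. Described without a test, 6 of 8 genes did not overlap between in vitro iSEPs and ADSCs, beside 63.7% of all genes kept: Cdkn1a, Rb1 and Rbl1 were higher and Cdkn2c, Cdkn2d and Cdkn1b lower. Of the 8 genes 6 did not overlap between in vitro iSEPs and keratinocytes, beside 40.8% of all genes, with only Cdkn2a higher and Cdkn2b, Cdkn2c, Cdkn1b, Rb1 and Rbl1 lower. Between in vivo and in vitro iSEPs 2 of 8 did not overlap, beside 15% of all genes, and these were Cdkn1b and Rb1, both higher in vivo. Without the in vivo iSEPs of mouse 3 the last count was 4. Fewer libraries make overlap less likely for any gene, and the share of all genes was not computed for that setting. Comparisons that share a group share its libraries and are not independent.

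**Figure D3:**
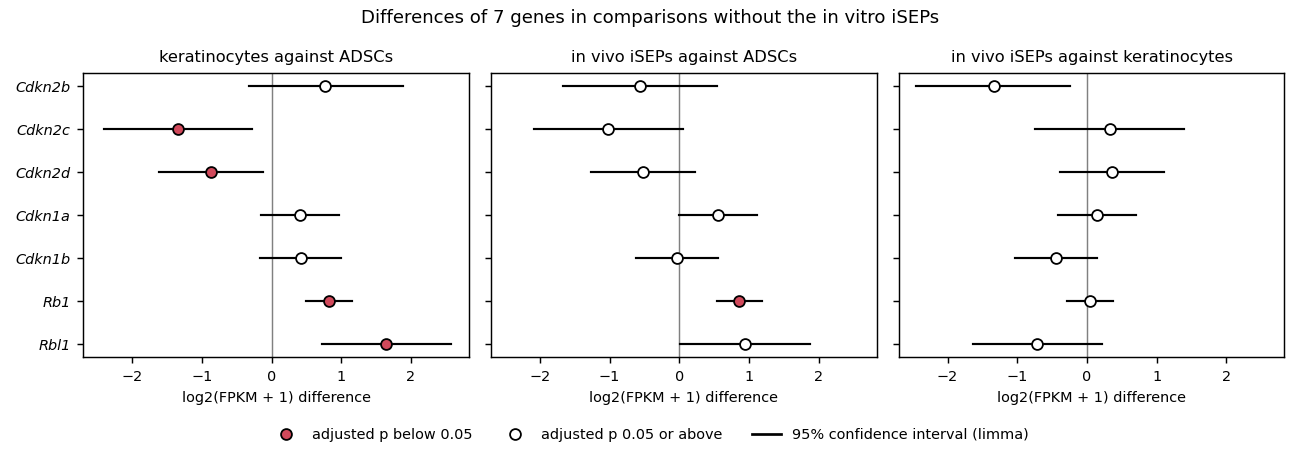
Log2 differences (log2(FPKM + 1), points) of the 7 tested genes in the 3 comparisons without in vitro iSEPs, 1 panel each; bars are 95% confidence intervals from limma, and filled points have an adjusted p below 0.05. Rb1 lies above 0 with its whole interval in both comparisons with ADSCs, by 0.82 and 0.86, while the intervals of Cdkn1b cross 0 in all 3 comparisons.

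Within the in vivo iSEPs, mouse 3 stood apart for Cdkn2a, Cdkn2b and Cdkn1a, and mouse 1 for Cdkn2c, Cdkn2d and Rbl1. Against the mean of mice 1 and 2, the library of mouse 3 held 3.25 times the Cdkn2a, 4.93 times the Cdkn2b and 1.75 times the Cdkn1a, while Rb1 was nearly level, at 1.05 times. Its Cdkn2c (2.22 FPKM) and Cdkn2d (3.49) lay near those of mouse 2 (2.67 and 4.91) and within the range of the in vitro iSEPs, and its Rbl1 (2.32) was the lowest of the epithelial libraries. The same library held 1.57 FPKM of the proliferation marker Mki67, against 32.5 and 10.5 in mice 1 and 2. Its basal keratinocyte marker sum was 10550 FPKM against 20900 and 17990, its stromal marker sum 174 against 29.1 and 51.5, and the part of these in the result was not tested.

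S phase genes, the end point of this pathway, were measured in the same libraries. Summed over 25 E2F target and S phase genes, none of them in the set, the FPKM came to 296, 317 and 474 in ADSCs, 354, 277 and 358 in the in vitro iSEPs, 1016, 381 and 158 in the in vivo iSEPs, and 660, 531 and 646 in keratinocytes. The in vivo iSEPs of mouse 1 were the highest of the 12 libraries and those of mouse 3 the lowest, the reverse of the order of Cdkn2b among those 3 libraries and the same order as Cdkn2c, Cdkn2d and Rbl1. Cdkn2a was highest where the sum was lowest, with mice 1 and 2 close together. In vitro iSEPs lay below all keratinocytes and overlapped ADSCs.

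**Figure D4:**
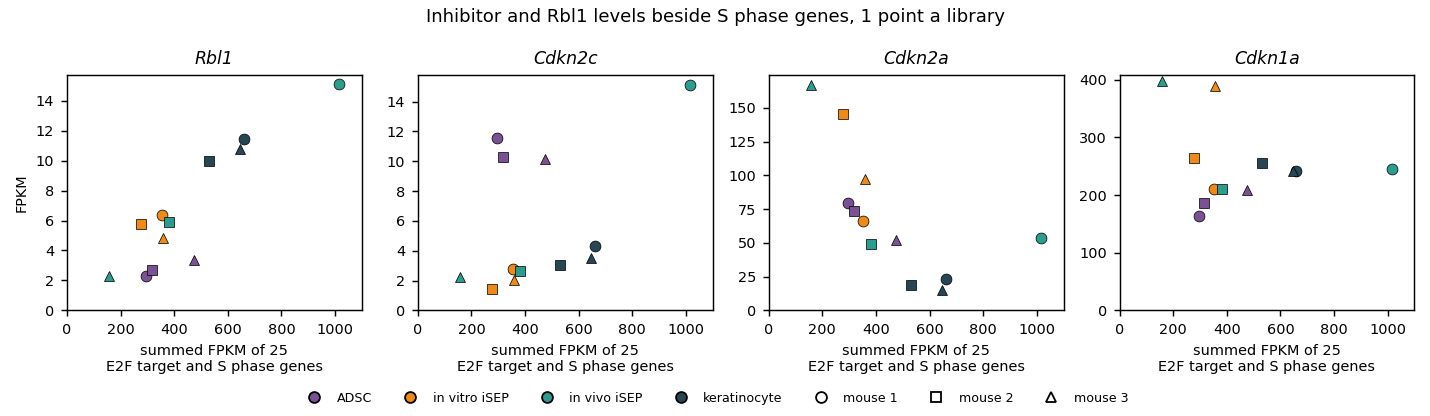
Summed FPKM of 25 E2F target and S phase genes (horizontal axis) against the FPKM of each gene (vertical axis), 1 point per library, coloured by group and shaped by mouse. The in vivo iSEPs run from 158 (mouse 3) to 1016 (mouse 1), and along that range Rbl1 goes from 2.32 to 15.1 FPKM; points of 1 group share their culture type, so no p is given.

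In keratinocytes over ADSCs, 7 of the 25 S phase genes rose and none fell, beside 32.8% and 20.7% of all genes kept, with a median log2 difference of 1.03 against 0.18 for all genes. Pcna, the sliding clamp of DNA replication, rose by 1.35 (adjusted p = 0.021 in limma) and Mcm4, a subunit of the replicative helicase, by 1.31 (adjusted p = 0.0243). That count was unstable, running from 0 to 16 over the alternatives. In the in vitro iSEPs against keratinocytes 3 of 25 fell, the replication licensing genes Cdc6 (-1.54, adjusted p = 0.0186) and Cdt1 (-1.23, adjusted p = 0.0257) and Gins2 (-1.33, adjusted p = 0.0289), with a median of -1.21 against -0.02 for all genes, and the count ran from 0 to 18. In the in vivo iSEPs 2 of 25 were lower than in keratinocytes, Cdc6 (-1.30, adjusted p = 0.0474) and Cdt1 (-1.16, adjusted p = 0.0421), calls that held in 3 of 15 and 4 of 16 alternatives. In both kinds of iSEP against ADSCs only Gins2 fell in limma, by 1.06 in vitro (adjusted p = 0.0205) and by 0.95 in vivo (adjusted p = 0.0376), calls that held in 11 and 7 of 16 alternatives. None of the 25 was called between in vivo and in vitro iSEPs, in any alternative.

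Among all genes kept, 32.8% rose and 20.7% fell in keratinocytes over ADSCs, 32.1% and 21.7% in the in vitro iSEPs over ADSCs (53.8% in all), and 27.6% and 20% in the in vivo iSEPs over ADSCs. Against keratinocytes, 5.22% were higher and 6.12% lower in the in vitro iSEPs (11.3% in all), and 3.41% higher and 4.08% lower in the in vivo iSEPs. Between the kinds of iSEP, 0.679% were higher and 0.946% lower in vivo (1.63% in all). Counts of pathway genes below can be read against these shares.

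Of the kinases and cyclins that the INK4 proteins oppose, Cdk6 and Ccnd1 rose in all 3 epithelial groups over ADSCs. Cdk6 rose from 1.32 ± 0.159 FPKM in ADSCs to 10.3 ± 1.96 in the in vitro iSEPs and 7.08 ± 1.11 in the in vivo iSEPs, by 2.27 and 1.79 on the log2 scale (adjusted p = 3.96e-07 and 2.87e-06 in limma), and in keratinocytes by 1.90 (adjusted p = 1.61e-06). Ccnd1, cyclin D1, rose from 16.7 ± 4.10 FPKM in ADSCs to 99.6 ± 29.2 in the in vitro iSEPs (2.49, adjusted p = 5.68e-05), 34.5 ± 8.64 in the in vivo iSEPs (1.00, adjusted p = 0.0222) and 94.9 in keratinocytes (2.39, adjusted p = 7.59e-05). It was the only 1 of 13 G1 kinases and cyclins called between the kinds of iSEP, lower in vivo by a log2 difference of -1.48 (adjusted p = 0.0465), a call that held in 7 of 16 alternatives. Ccnd3, cyclin D3, fell against ADSCs in all 3 epithelial groups, by 0.75 in keratinocytes (adjusted p = 6.62e-05), 0.48 in the in vitro iSEPs (adjusted p = 0.00171) and 0.38 in the in vivo iSEPs (adjusted p = 0.008). Cdk4 was abundant everywhere, from 157 to 246 FPKM, and was not called in any of the 6 comparisons. Of the 13 genes, 2 rose and 2 fell in keratinocytes over ADSCs, 3 rose and 1 fell in the in vitro iSEPs, and 3 rose and 2 fell in the in vivo iSEPs.

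**Figure D5:**
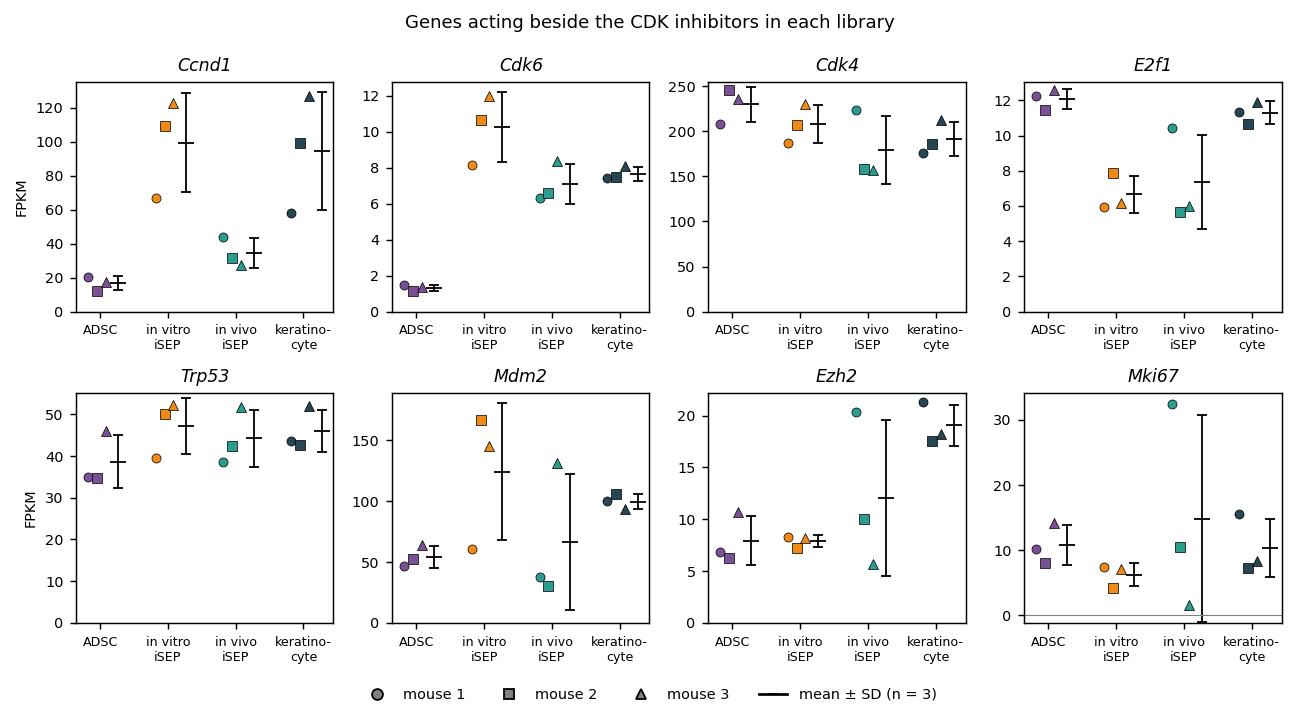
FPKM of 8 genes that act beside the inhibitors (1 panel each, linear axes) in the 3 libraries of each group; symbols are the mice and the bar is the mean ± SD (n = 3). Cdk6 lies between 1.15 and 1.47 in ADSCs and at 6.30 or more elsewhere, while Cdk4 overlaps between all groups; Mki67 spreads most in the in vivo iSEPs, and Mdm2 about equally in both kinds of iSEP.

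Among the E2F and DP factors downstream of the pocket proteins, E2f1, the best-known activator of S phase genes, was lower in both kinds of iSEP. It was at 12.1 ± 0.575 FPKM in ADSCs, 6.66 ± 1.04 in the in vitro iSEPs and 7.36 ± 2.66 in the in vivo iSEPs (SD, n = 3), and fell by 0.78 and 0.69 on the log2 scale (adjusted p = 0.00495 and 0.0111 in limma). In keratinocytes the E2f1 difference from ADSCs was -0.09 (adjusted p = 0.717). E2f2 rose in keratinocytes over ADSCs by 1.46 (adjusted p = 8.87e-05) and was lower than in keratinocytes in both kinds of iSEP, by a log2 difference of -1.20 in vitro (adjusted p = 0.00416) and -1.35 in vivo (adjusted p = 0.00261). E2f4, a repressor that works with the pocket proteins, rose in all 3 epithelial groups over ADSCs, by 0.74, 0.72 and 0.50 in keratinocytes, in vitro iSEPs and in vivo iSEPs (adjusted p = 0.00161, 0.00187 and 0.0167). The last call held in 9 of 16 alternatives (highest adjusted p 0.302) and was lost, among others, after median scaling and without the ADSCs or the in vivo iSEPs of mouse 2. In all, 3 of 10 rose and 1 fell in keratinocytes over ADSCs, 1 rose and 5 fell in the in vitro iSEPs, and 1 rose and 3 fell in the in vivo iSEPs.

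The remaining relatives of the set were not called. Cdkn1c, which encodes p57, was at 1.27 ± 1.25 FPKM in ADSCs, 2.10 ± 0.858 in the in vitro iSEPs and 3.25 ± 3.43 in the in vivo iSEPs, and Rbl2, which encodes p130, was at 7.88 ± 2.22, 8.22 ± 1.66 and 8.84 ± 2.25. Neither passed in any of the 6 comparisons (limma).

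On the p53 side, where p19Arf acts, Trp53 and Mdm2 themselves were not called in any comparison. Of 6 genes on this side, Trp63 and Trp73 rose in all 3 epithelial groups over ADSCs. Npm1 rose in the in vitro iSEPs alone (0.65, adjusted p = 0.0227 in limma). Trp63 was higher than in keratinocytes by 1.105 in vitro (adjusted p = 0.0402) and 1.35 in vivo (adjusted p = 0.0216). Those 2 calls held in 5 and 9 of 16 alternatives. Trp53 was at 38.6 ± 6.34 FPKM in ADSCs and 47.2 ± 6.78 in the in vitro iSEPs. Mdm2, a p53 target and inhibitor, was at 38.0, 30.2 and 131 FPKM in the in vivo iSEPs of mice 1 to 3, so the library with the highest Cdkn2a, Cdkn2b and Cdkn1a of its group also had the highest Mdm2 of its group. Mdm2 was at 60.9, 167 and 146 FPKM in the in vitro iSEPs of mice 1 to 3. Over the 12 libraries, which share 4 groups, r between the log2 levels of Cdkn1a and Mdm2 was 0.71, and r between Cdkn2a and Mdm2 was 0.16.

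Of 20 p53 targets, Mdm2 among them, 6 rose and 3 fell in keratinocytes over ADSCs, 8 rose and 3 fell in the in vitro iSEPs, and 9 rose and 3 fell in the in vivo iSEPs, with medians of 0.29, 0.27 and 0.29 against 0.18, 0.15 and 0.14 for all genes. The largest rises were in Perp, a desmosome component, which went from 1.67 ± 0.621 FPKM in ADSCs to 2864 ± 793 in the in vitro iSEPs (log2 difference 10.05, adjusted p = 1.88e-10 in limma), and in Sfn, the epithelial 14-3-3 protein (8.52, adjusted p = 1.46e-10). Both are also epithelial genes. Pmaip1, the apoptosis gene Noxa, rose by 2.88 in the in vitro iSEPs (adjusted p = 3.94e-06), while the stress cytokine Gdf15 fell by 2.38 (adjusted p = 2.2e-05). Between in vivo iSEPs and keratinocytes none of the 20 was called in limma, and between in vitro iSEPs and keratinocytes only Btg2, an antiproliferative gene, was higher (1.45, adjusted p = 0.00511).

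Among 21 Polycomb genes and other known repressors of the Cdkn2a locus, 8 rose and 3 fell in keratinocytes over ADSCs, 6 rose and 4 fell in the in vitro iSEPs, and 8 rose and 5 fell in the in vivo iSEPs. Bmi1, the repressor best known for this locus, was at 15.1 ± 1.88 FPKM in ADSCs, 13.4 ± 2.39 in the in vitro iSEPs and 11.2 ± 2.17 in the in vivo iSEPs and was not called in any comparison. Ezh2, the methyltransferase of the Polycomb complex that marks histone H3, was at 7.94 ± 2.38 FPKM in ADSCs, 7.90 ± 0.555 in the in vitro iSEPs and 12.04 ± 7.55 in the in vivo iSEPs. It rose by 1.19 in keratinocytes over ADSCs (adjusted p = 0.0115) and was lower in the in vitro iSEPs than in keratinocytes (-1.17, adjusted p = 0.0479), a call that held in 5 of 16 alternatives. Its relative Ezh1 rose in all 3 groups over ADSCs, by 1.44, 1.19 and 1.17 (adjusted p = 3.94e-05, 0.000166 and 0.000216 for keratinocytes, in vitro and in vivo iSEPs). Twist1, a mesenchymal factor, fell in all 3 groups against ADSCs in limma. The log2 differences were -4.23 in keratinocytes (adjusted p = 2.27e-06), -2.04 in the in vitro iSEPs (adjusted p = 0.000599) and -1.42 in the in vivo iSEPs (adjusted p = 0.00687). It was higher in both kinds of iSEP than in keratinocytes, by 2.19 in vitro (adjusted p = 0.00411) and 2.81 in vivo (adjusted p = 0.00134). Id1 fell in all 3, with log2 differences of -2.08, -1.98 and -2.77 (adjusted p = 0.00124, 0.00169 and 0.000181).

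Of 5 known activators of the locus, Ets2 rose by 3.16 in keratinocytes, 3.08 in the in vitro iSEPs and 2.63 in the in vivo iSEPs over ADSCs (adjusted p = 4.61e-08, 6.5e-08 and 2.38e-07 in limma). Its part in the level of Cdkn2a was not tested. Ets1 rose in both kinds of iSEP over ADSCs, by 0.78 in vitro (adjusted p = 0.00313) and 1.18 in vivo (adjusted p = 0.000205), and was higher in the in vivo iSEPs than in keratinocytes (0.74, adjusted p = 0.0272), the last a call that held in 9 of 16 alternatives. The other 3 were not called.

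Most regulators of Cdkn1b and Cdkn2b were higher in the epithelial groups than in ADSCs: of 11, 7 rose and none fell in keratinocytes over ADSCs, 6 rose and 3 fell in the in vitro iSEPs, and 6 rose and 2 fell in the in vivo iSEPs. Foxo3, a forkhead activator of Cdkn1b, rose by 1.41, 1.32 and 1.36 (adjusted p = 0.000168, 0.000277 and 0.00025 for keratinocytes, in vitro and in vivo iSEPs), and Foxo1 by 1.62, 0.88 and 1.08. Myc, a repressor of both Cdkn2b and Cdkn1a and an inducer of p19Arf, rose from 25.9 ± 6.76 FPKM in ADSCs to 108 ± 41.3 in the in vitro iSEPs (1.99, adjusted p = 6.63e-05) and 67.4 ± 11.7 in the in vivo iSEPs (1.36, adjusted p = 0.00114). Skp2, the ubiquitin ligase subunit that marks p27 for degradation, fell in the in vitro iSEPs by 1.05 (adjusted p = 0.0112) and in the in vivo iSEPs by 0.86 (adjusted p = 0.0331). The second call held in 7 of 15 alternatives (highest adjusted p 0.317) and was lost, among others, without the ADSCs of mouse 1 or 3 and without the in vivo iSEPs of mouse 2 or 3. Among these 11, none was called between in vivo iSEPs and keratinocytes in limma.

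Genes often measured beside Cdkn2a in senescent cells were mostly lower in the epithelial groups than in ADSCs. Of 18 such genes, 10 fell and 2 rose in keratinocytes over ADSCs, 9 fell and 2 rose in the in vitro iSEPs, and 11 fell and 2 rose in the in vivo iSEPs, with medians of -1.43, -1.17 and -1.56. Il6 fell from 11.4 ± 2.49 FPKM in ADSCs to 0.20 ± 0.11 in the in vitro iSEPs, by 3.36 on the log2 scale (adjusted p = 2.63e-08 in limma). Igfbp3 rose instead, from 17.0 ± 11.3 to 230 ± 79.5 FPKM (3.91, adjusted p = 4.8e-05). Some genes of this list are stromal secreted proteins, and the stromal marker sum was also lower in the epithelial groups than in ADSCs. The part of that sum in the result was not tested. Between in vivo iSEPs and keratinocytes 0 of 18 were called, and between in vitro iSEPs and keratinocytes 1 of 18, Il1a, was lower (-2.41, adjusted p = 0.0237), a call that held in 8 of 16 alternatives.

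Late differentiation genes, which keratinocytes turn on as they leave the cell cycle, had the highest mean sum in the in vitro iSEPs, but the libraries of the epithelial groups overlapped. Their summed FPKM over 10 genes was 1453, 340 and 872 in the in vitro iSEPs of mice 1 to 3, 365, 244 and 829 in the in vivo iSEPs, 801, 489 and 445 in keratinocytes and 22.1 to 30.1 in ADSCs. All 10 rose in the in vitro iSEPs over ADSCs, and 6 of 10 rose in each of the other epithelial groups. Against keratinocytes, 3 of 10 were higher in the in vitro iSEPs: Krt10, a suprabasal keratin (3.71, adjusted p = 0.0302), Tgm1, which cross-links the cornified envelope (1.85, adjusted p = 0.0299), and Klf4 (0.91, adjusted p = 0.0472). These calls held in 7, 8 and 6 of 16 alternatives, each was lost on leaving out any 1 keratinocyte library or the mouse 1 or mouse 3 in vitro culture, and the count ran from 0 to 6. Among the in vitro iSEPs, mouse 2 had the highest Cdkn2a and the lowest sum of these genes.

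By the correlation of log2 levels over the 12 libraries, the genes most like Cdkn2a among 9525 with a group mean of at least 5 FPKM were Rabgap1l (r = 0.929), Ivd (0.919), L3hypdh (0.874), Cpt1c (0.856) and Cgref1 (0.849). All were lower in keratinocytes than in the other groups on average, and the 12 points share 4 groups, so no p is given. The list was not stable: 3 of the 5 remained after scaling to a common median and 2 after quantile normalization. For Rbl1 the closest were Tardbp (0.981) and Gmnn (0.977), the latter an inhibitor of replication licensing. For Cdkn2b they were Myo1d (0.960) and Alcam (0.943), which like Cdkn2b were higher in the in vivo iSEPs of mouse 3 than in those of mice 1 and 2.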

How the data were processed

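RNA of 12 cultures was sequenced, 3 in each of 4 groups, from TruSeq RNA libraries per the labels' protocols. Per the file headers, the authors counted reads in RefSeq exons of mm10 on the transcript's strand with HOMER, kept 1 entry per gene and deposited FPKM for 24537 genes. FastQC 0.11.5, STAR 2.5.1b and HOMER were used, per the submitters' processing notes. The sources used here do not say whether the kit marks strand. Left out were 3 further columns whose names correspond to none of the listed samples. Low FPKM values were whole multiples of 1 read (tolerance 0.15), which gave 21010000 to 27770000 reads per library in listed genes. Low genes rest on few reads, so their values are less precise.

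The scale was log2(FPKM + 1). In R 4.3.3, limma 3.58.1 (moderated variances with a mean trend) fitted 1 model with 4 group means over 12 libraries to the 12364 genes that reached 1 FPKM in 3 libraries or more. Tests are two-sided, with Benjamini-Hochberg adjustment over those genes and a threshold of 0.05. Differences on the log2 scale understate the change of low genes. The fit was tested on simulated data. The titles and the series' design text tie a number to an animal, so a fit with the mouse as a block was an alternative. The deviations of same-mouse libraries correlated at -0.178 to 0.21 over 18 pairs (median 0.045), against a median of -0.014 over 36 pairs of different mice. Further alternatives were the pseudocount, the filter, median scaling, quantile normalization, the compared groups fitted alone, and leaving out each library and each mouse. The members and gene lists were chosen with earlier results of these data known. Named beside the members are, per list and comparison, up to 4 called genes with the largest difference, a few genes given throughout (Cdk4, Cdk6, Ccnd1, E2f1, Trp53, Mdm2, Bmi1, Ezh2, Mtap and Mki67), and the genes most like a member over the libraries. Pcna, Ezh1, Foxo1, Igfbp3, Krt8 and others outside that rule were chosen after their values were seen.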

Additional observations from a re-analysis of the deposited data

How the results depend on the processing

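Of the calls in the 8 genes, those of Rb1 against ADSCs held in 16 of 16 alternatives, and those of Cdkn2c and Cdkn2d in 7 and 6 of 16. The 7 tested genes gave 4 calls in keratinocytes against ADSCs, and 1 to 4 on leaving out a library or mouse. They gave 2 with no filter, 5 with the replicate block and 6 with those groups fitted alone. Over all genes that comparison gave 6616 calls, and 7938 with no filter, where more genes are tested. It gave 6506 with the replicate block and 7745 with those groups fitted alone. For in vivo iSEPs against ADSCs, 1 call became 2 with the replicate block and 1 to 3 on leaving out. Against keratinocytes in vivo iSEPs had 0 calls, and 0 to 1 on leaving out. The replicate block changed no other call of these genes than Cdkn1b in keratinocytes and Cdkn1a in the in vivo iSEPs, both against ADSCs.

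Without overlap were 6 genes between in vitro iSEPs and ADSCs (6 to 7 on leaving out, and 4 after median scaling or quantile normalization). Between in vitro iSEPs and keratinocytes there were 6 (6 to 8), and between the kinds of iSEP 2 (2 to 4). The share of all genes without overlap was not computed for these alternatives. Over all genes, calls were 6616 in keratinocytes against ADSCs (3920 to 6322 on leaving out), 5888 for in vivo iSEPs against ADSCs (3486 to 6281), 6657 for in vitro iSEPs against ADSCs (4295 to 6338) and 1403 for in vitro iSEPs against keratinocytes (193 to 1180). Calls were 925 for in vivo iSEPs against keratinocytes (35 to 1676, and 424 with those groups alone) and 201 between the kinds of iSEP (2 to 360, 128 with the replicate block and 1 with those groups alone). The 5 genes most like Cdkn2a kept 3 after median scaling, 2 after quantile normalization and 1 to 3 without a mouse. Direction changed only for differences that never passed. Cdkn1b, in vivo iSEPs against ADSCs, was -0.03 and ran from -0.28 to 0.20 in leave-one-out fits. For in vivo iSEPs against keratinocytes, such fits ran from -0.42 to 0.74 for Cdkn2c, -0.12 to 0.73 for Cdkn2d, -0.13 to 0.37 for Cdkn1a and -0.12 to 0.18 for Rb1. The cause was not tested. Of 234 calls among the pathway genes 116 held in every alternative, and none changed sign. Depth limits Cdkn2c most, at 47 reads in its lowest library.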
